A study of Homo sapiens with 2 samples.

Results

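SOX9 occupancy was examined at 10 genes for Wnt receptors in the human colorectal adenocarcinoma line HT-29, the Frizzled genes FZD1 to FZD8 and the co-receptor genes LRP5 and LRP6, out of 20136 protein-coding genes annotated on hg19. The genes were taken by name. A SOX9 peak was assigned to a gene when its summit, the position of highest tag density, lay within 1 kb of an annotated transcription start site (TSS) of the gene, in the gene, or within 20 kb of either end, and 22 of the 17847 peaks in the authors' list met this rule. The study sequenced 1 chromatin immunoprecipitation (ChIP) library made with an antibody to SOX9 from HT-29 cells and, as its control, 1 library of input DNA from the same line, grown overnight before fixation. The sample labels name DMEM as the medium, whereas the study's methods name McCoy's 5A. Both libraries held 12320108 tags after the authors had downsampled the input. With 1 biological replicate no value has a replicate error and no test between ChIP and input was made here. The 95% intervals given below are exact, cover counting error only, and take no account of the amplification of the libraries before sequencing. No expression was measured in these samples, so the cell line label was not checked against marker genes.

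Frizzled proteins are receptors that span the cell membrane several times and bind Wnt ligands through an extracellular cysteine-rich domain. In β-catenin-dependent signalling they act together with LRP5 or LRP6, co-receptors whose intracellular tails draw Axin to the membrane, so that β-catenin is no longer degraded and can enter the nucleus to act with TCF and LEF proteins. In the intestinal crypt this pathway maintains stem cells, and colorectal tumours commonly carry mutations that activate it downstream of the receptors. SOX9 is an HMG-box transcription factor of crypt stem and progenitor cells and of Paneth cells, and its gene is known to respond to Wnt signalling. NF-Y is a histone-fold complex that binds the CCAAT box, a common element of promoters.

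Sequences of the promoter peaks are printed first because they show where CCAAT boxes lay relative to SOX9 at the receptor genes. Each runs 5′ to 3′ on the strand of the gene in hg19 (GRCh37), up to 90 bp to either side of the summit and shortened where an annotated untranslated region began. Capitals mark each CCAAT, which reads ATTGG where it lies on the other strand, and each SOX site. A SOX site was searched on both strands as CAAAG or CAATG preceded by a pair of bases that are each A or T, and a full NF-Y site as CCAAT preceded by a pair of purines and followed by C or G and then a purine. The FZD2 peak is described by its values only. For FZD5 and FZD8 the full site lay outside the 100 bp on either side of the summit, and 41 bases around it are given.
FZD1 promoter summit (chr7:90893592-90893747, plus strand): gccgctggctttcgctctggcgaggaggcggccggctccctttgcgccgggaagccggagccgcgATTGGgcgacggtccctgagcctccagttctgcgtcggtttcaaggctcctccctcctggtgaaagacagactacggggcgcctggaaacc
FZD4 promoter summit (chr11:86666438-86666560, minus strand): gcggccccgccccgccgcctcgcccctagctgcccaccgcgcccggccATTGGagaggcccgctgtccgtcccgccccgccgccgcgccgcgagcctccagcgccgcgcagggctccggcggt
FZD7 upstream summit (chr2:202898272-202898452, plus strand): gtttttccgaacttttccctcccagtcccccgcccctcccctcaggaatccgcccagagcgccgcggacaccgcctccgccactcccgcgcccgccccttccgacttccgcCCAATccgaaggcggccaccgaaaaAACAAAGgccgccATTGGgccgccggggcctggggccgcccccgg
LRP6 promoter summit (chr12:12420229-12420409, minus strand): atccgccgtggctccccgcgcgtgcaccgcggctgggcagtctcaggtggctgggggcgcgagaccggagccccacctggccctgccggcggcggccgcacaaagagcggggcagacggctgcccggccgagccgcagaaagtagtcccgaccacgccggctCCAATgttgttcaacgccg
FZD5 NF-Y site (chr2:208634807-208634847, minus strand): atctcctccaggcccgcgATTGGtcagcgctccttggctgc
FZD8 NF-Y site (chr10:35931272-35931312, minus strand): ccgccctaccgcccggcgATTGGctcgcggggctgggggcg

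The next set shows the clearest SOX sites and the densest NF-Y sites among the same 22 peaks. In intron 1 of LRP5 a pair of SOX sites faced each other across a spacer of 4 bp, the arrangement to which SOX9 is known to bind as a dimer. The LRP6 intron held a pair of SOX sites in capitals with no such spacing. The last sequence belongs to a peak that lay within 20 kb of LRP5 but at the promoter of the next gene, PPP6R3, a regulatory subunit of protein phosphatase 6.
LRP5 intron 1 summit (chr11:68095883-68096063, plus strand): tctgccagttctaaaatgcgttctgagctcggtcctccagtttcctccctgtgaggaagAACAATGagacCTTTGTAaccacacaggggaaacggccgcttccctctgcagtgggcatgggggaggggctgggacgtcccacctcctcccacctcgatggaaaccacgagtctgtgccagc
LRP6 intron 2 summit (chr12:12367190-12367370, minus strand): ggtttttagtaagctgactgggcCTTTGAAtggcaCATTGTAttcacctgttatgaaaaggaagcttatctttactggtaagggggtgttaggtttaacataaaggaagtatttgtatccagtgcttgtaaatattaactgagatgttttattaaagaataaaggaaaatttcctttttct
summit beyond LRP5, at PPP6R3 (chr11:68227978-68228158, plus strand): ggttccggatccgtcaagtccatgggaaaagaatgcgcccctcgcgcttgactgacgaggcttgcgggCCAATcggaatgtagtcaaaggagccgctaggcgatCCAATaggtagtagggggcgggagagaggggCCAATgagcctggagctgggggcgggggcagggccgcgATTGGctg

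SOX9 peaks stood at the starts of 7 of the 8 Frizzled genes and of LRP6. In all, 8 of the 10 receptor genes had a promoter summit, meaning one no more than 1 kb from a TSS, against 44.9% of the 20136 protein-coding genes (9033 genes). The exceptions were FZD3, which had no peak in the gene or within 20 kb of it, and LRP5, whose 10 peaks all lay farther from its starts. Of the 22 peaks, 10 were within 1 kb of a TSS of their gene, 9 were over 3 kb from the TSS of any gene, and 3 were of neither kind. None of the 9 distant peaks belonged to a Frizzled gene: 8 were at LRP5 and 1 was at LRP6. With the wider windows, 9 of the 10 genes had at least 1 summit, against 65.4% of all protein-coding genes. The windows of the 10 genes held 2.62 summits per 100 kb, against 1.25 for the windows of all protein-coding genes. The 8 Frizzled genes together had 2.12, LRP5 had 5.66 and LRP6 had 1.05 summits per 100 kb. Such densities depend on window length, since a single promoter peak counts for more in a short window. No Frizzled gene had more than 2 summits, and the median over all protein-coding genes was 1. At the 7 Frizzled genes with a peak, between 11.3% (FZD8) and 46.8% (FZD6) of protein-coding genes had as high a density. At LRP6 that share was 52.9%.

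**Figure D1:**
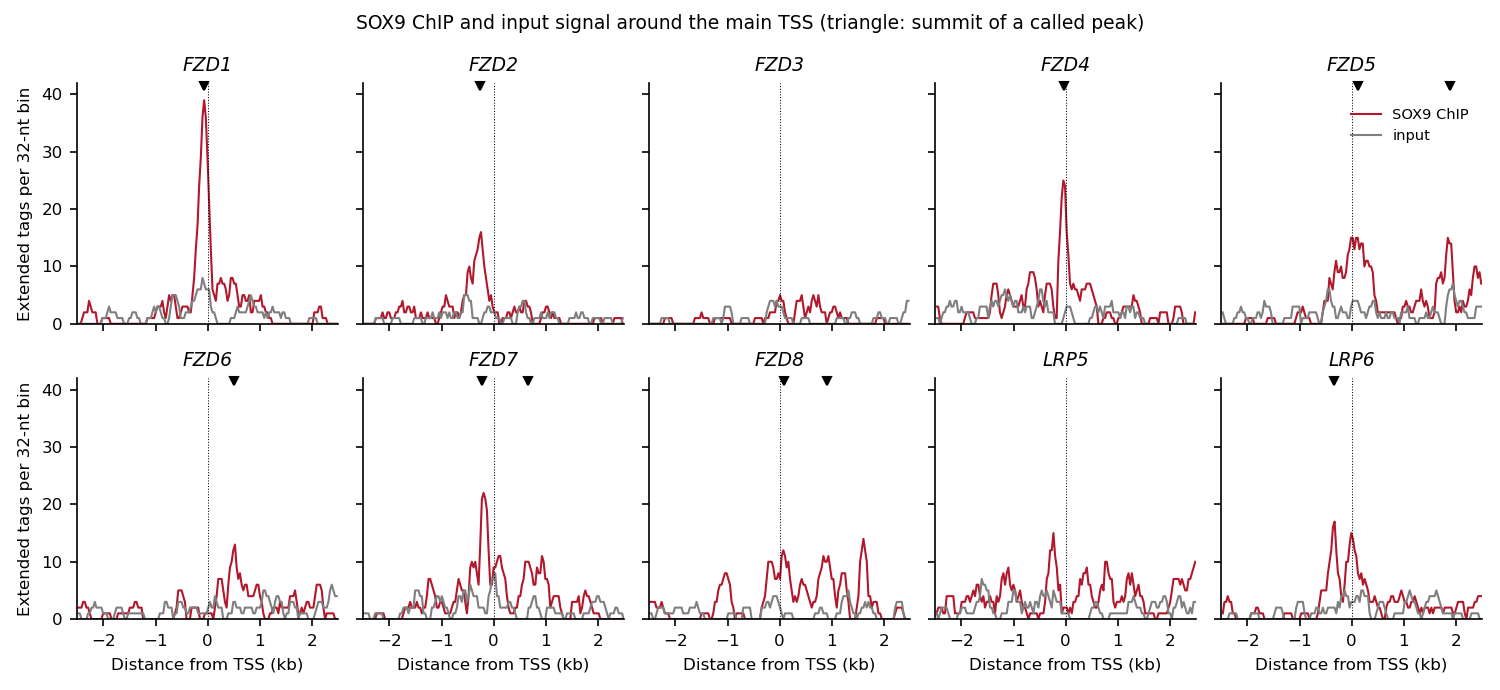
SOX9 ChIP signal (red) and input signal (grey) in extended tags per bin of 32 nt, against the distance in kb from the main TSS of each of the 10 receptor genes. Black triangles mark summits of called peaks. FZD1 reaches 39 and FZD4 reaches 25 SOX9 tags per bin close to the TSS, whereas FZD3 stays at 5 or below within 500 bp of it.

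The limits of the rule left some summits close to either side. The farthest summit counted as a promoter summit was that of FZD8 at +904 bp, and the nearest one not counted was that of FZD5 at +1880 bp. The farthest assigned outside a gene lay 14.6 kb upstream of LRP5, and the nearest not assigned was 37.1 kb from FZD7.

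The strongest Frizzled promoter peaks were those of FZD1 and FZD4. FZD1 is a receptor for Wnt ligands of the β-catenin pathway. Its only peak (chr7:90893242-90894394) held 78 tags (61.7 to 97.3) with a MACS fold enrichment of 15.97 over the local input, more than the median of 45 tags and 10.39-fold for all peaks, and its summit lay 66 bp upstream of the TSS of this gene without introns. The SOX9 signal reached 39 extended tags per bin there, and the input signal reached 8. FZD4, the receptor for Norrin in retinal blood vessel growth, had 1 peak (chr11:86665828-86667410) of 69 tags (53.7 to 87.3) and 15.39-fold enrichment, with the summit 33 bp upstream of its single TSS. The highest bins were 25 in the SOX9 ChIP and 6 in the input. In tag number the FZD1 peak ranked 3391 and the FZD4 peak 4379 among the 17847 peaks, so both were in the upper part of the list without being among its strongest.

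FZD7, which in mouse serves intestinal stem cells, and FZD5, which in mouse is needed for Paneth cells to mature, each had a pair of peaks. At FZD7 the upstream peak (chr2:202897852-202898932) had 58 tags (44 to 75) with its summit at −216 bp, and the other (chr2:202898955-202899716) had 32 tags (21.9 to 45.2) with its summit at +659 bp, in the untranslated part of the single exon. Their fold enrichments, 7.47 and 5.95, were below the 10.39 of the median peak. The upstream summit of FZD7 was closer to the start of the unnamed gene ENSG00000273209, at 102 bp, than to that of FZD7. At FZD5 a peak of 64 tags (49.3 to 81.7) lay over the start (chr2:208634084-208635206, summit at +120 bp in exon 1) and a peak of 54 tags (40.6 to 70.5) lay in the coding part of exon 2 (chr2:208631786-208633037, summit at +1880 bp). The FZD5 intervals of tags overlapped, whereas at FZD7 the upstream peak had more tags and the intervals of 44 to 75 and 21.9 to 45.2 only met at their ends. That upstream peak was also the wider one, 1081 bp against 762 bp. Unlike the tags and fold enrichments, the ratio of SOX9 to input signal over the peak was lower upstream. It was 2.42 (1.48 to 4.07) there and 5.03 (2.12 to 15.1) in the other FZD7 peak, with overlapping intervals. Between the summits the SOX9 signal fell to 0 at FZD5 and to 1 extended tag per bin at FZD7, so the members of each pair were separate.

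FZD8, the Frizzled whose cysteine-rich domain (from mouse) was first seen in a crystal structure with a Wnt, is a gene of 1 exon with a pair of lower peaks. Its peaks had 33 tags (22.7 to 46.3, chr10:35930785-35931583) at +78 bp and 32 tags (21.9 to 45.2, chr10:35929893-35930673) at +904 bp, the second in the coding sequence and 140 bp from the start of the microRNA gene MIR4683. Their tag numbers were below the median peak and their fold enrichments were 8.56 and 9.82. The highest SOX9 bin near FZD8 was in neither: 14 extended tags per bin were reached 1607 bp downstream of the TSS, where the input had 2, against 12 and 11 in the called peaks.

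FZD2, a receptor that responds to WNT5A, had 1 peak (chr17:42634227-42634934) with 34 tags (23.5 to 47.5) and a fold enrichment of 9.48. Its summit was the farthest upstream among the Frizzled genes, at −257 bp, close to a full NF-Y site. The SOX9 signal reached 16 extended tags per bin and the input 5.

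FZD6 and FZD3 had the fewest SOX9 tags around the TSS among the Frizzled genes, 20 and 13. FZD6, which in mouse orients hair follicles, had a peak of 29 tags (19.4 to 41.6, chr8:104310794-104311539), the fewest of the 22, with a fold enrichment of 8.6. Its summit was 500 bp downstream of the 5′ end of the gene record but only 35 bp downstream of the start of the MANE Select transcript, the representative transcript agreed by the annotation groups, which begins 465 bp into the record. FZD3, which in mouse guides growing axons, had no summit within 92.2 kb of the gene. Over its whole window of 120 kb the highest bin held 6 extended tags in the SOX9 ChIP and 4 in the input, and the window had 226 SOX9 tags against 280 input tags.

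At LRP5, a co-receptor known for its part in bone mass, SOX9 peaks lay away from the starts of the gene. Its window held 10 summits, a number reached by 36 of the 20136 protein-coding genes, or 0.179%. LRP5 is a long gene (137 kb), and 7.54% of the genes had as many or more summits for the length of their window. The window had 2290 SOX9 tags and 1464 input tags. Among the 10 was the summit at the PPP6R3 promoter, and all these values include it. Of the 10 summits, 7 were inside the gene, 5 of them in intron 1, 1 in intron 2 and 1 in intron 5.

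The leading LRP5 peak lay 15.9 kb into the gene in intron 1 (chr11:68095290-68096767), at the pair of SOX sites printed above. It had 149 tags (126 to 175) and a fold enrichment of 22.92, and 96.0% of all peaks had fewer tags. The SOX9 signal reached 82 extended tags per bin, against 10 in the input. The other peaks of intron 1 were at +3.08 kb with 68 tags (52.8 to 86.2), at +19.1 kb with 60 tags (45.8 to 77.2), at +30.2 kb with 62 tags (47.5 to 79.5) and at +31.4 kb with 56 tags (42.3 to 72.7), and their intervals all overlapped one another. Further on, LRP5 had 43 tags (31.1 to 57.9) at +42.2 kb in intron 2 and 84 tags (67.0 to 104) at +68.0 kb in intron 5. The last of these had the lowest fold enrichment of the 22 peaks, 5.42. The other peaks of intron 1 had 6.46, 9.92, 7.98 and 7.29, in the order above, and the intron 2 peak had 6.45. All were below the 10.39 of the median peak. The peak at +3.08 kb also had the lowest MACS score of the 22, 72.4, and the highest false discovery rate, 0.05%.

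Upstream of LRP5 a broad peak of 110 tags (90.4 to 133, chr11:68065057-68066748) lay 14.6 kb from the TSS and a narrower one of 51 tags (38.0 to 67.1, chr11:68069935-68070686) lay 9.72 kb from it. The first had more tags but a lower fold enrichment, 6.86, against 10.9 for the second, and its highest SOX9 bin was lower as well, 25 against 29. The tenth summit had the most tags of all 22, 186 (160 to 215, chr11:68227211-68229125, 20.6-fold), and lay 11325 bp beyond the 3′ end of LRP5 and 131 bp from the start of PPP6R3. Counting only peaks whose nearest TSS belonged to the receptor gene left 19 of the 22, since this peak, one at FZD7 and one at FZD8 were nearest to another gene.

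**Figure D2:**
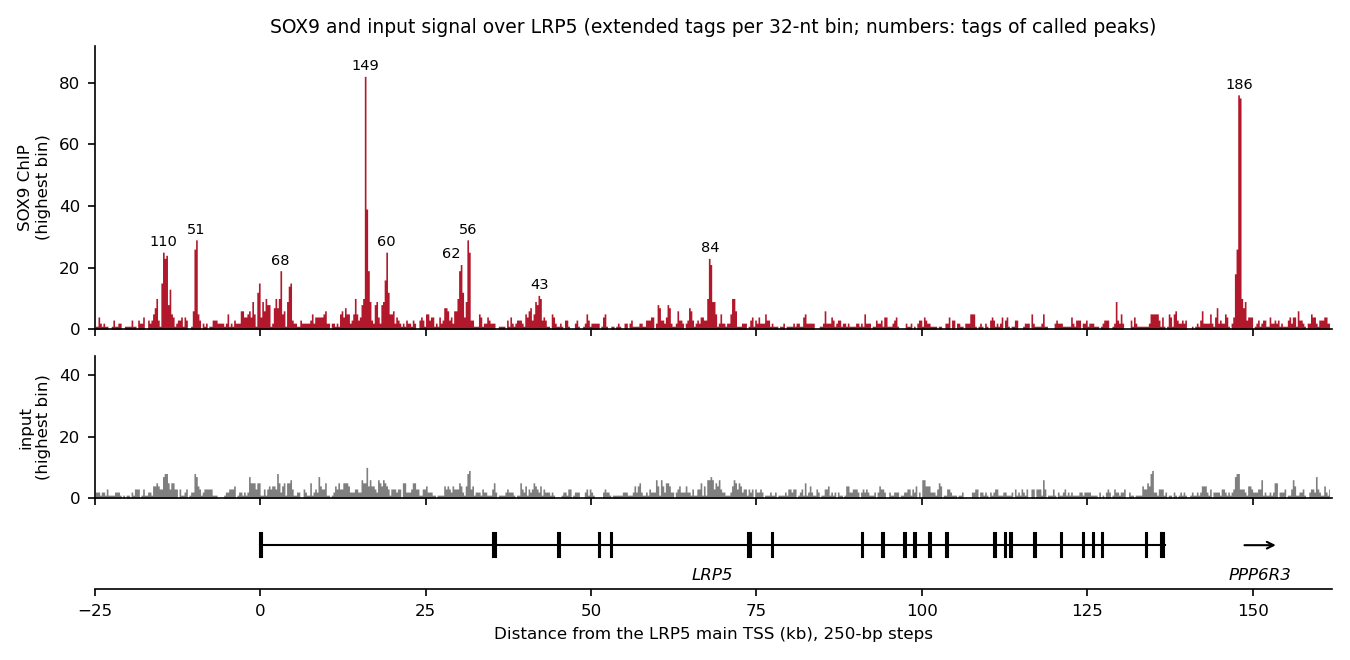
Highest SOX9 ChIP signal (top, red) and input signal (middle, grey) in steps of 250 bp over LRP5, in extended tags per bin of 32 nt drawn to the same scale, against the distance in kb from the main TSS. Black boxes (bottom) are LRP5 exons, the arrow is the start of PPP6R3, and the numbers are tags of called peaks. The peaks of 149 and 186 tags rise to 82 and 76, while the input stays at 10 or below.

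LRP6, the co-receptor whose phosphorylated tail binds Axin, had a promoter peak and an intronic one. The promoter peak (chr12:12419592-12420610) had 52 tags (38.8 to 68.2), a fold enrichment of 6.85 and its summit at −341 bp. The SOX9 signal in it reached 17 extended tags per bin, at −327 bp, and the input 5. The SOX9 signal fell to 3 at −167 bp and rose again to 15 at −7 bp, so a further maximum of near height lay at the TSS. The intronic peak (chr12:12367099-12367615) lay 52.7 kb into the gene in intron 2 and had 36 tags (25.2 to 49.8) with a fold enrichment of 13.69. It was the narrowest of the 22 peaks at 517 bp, and 33.3% of the bases within 100 bp of its summit were G or C, the lowest share of the 22. The promoter peak of LRP6 reached 74.6%.

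**Figure D3:**
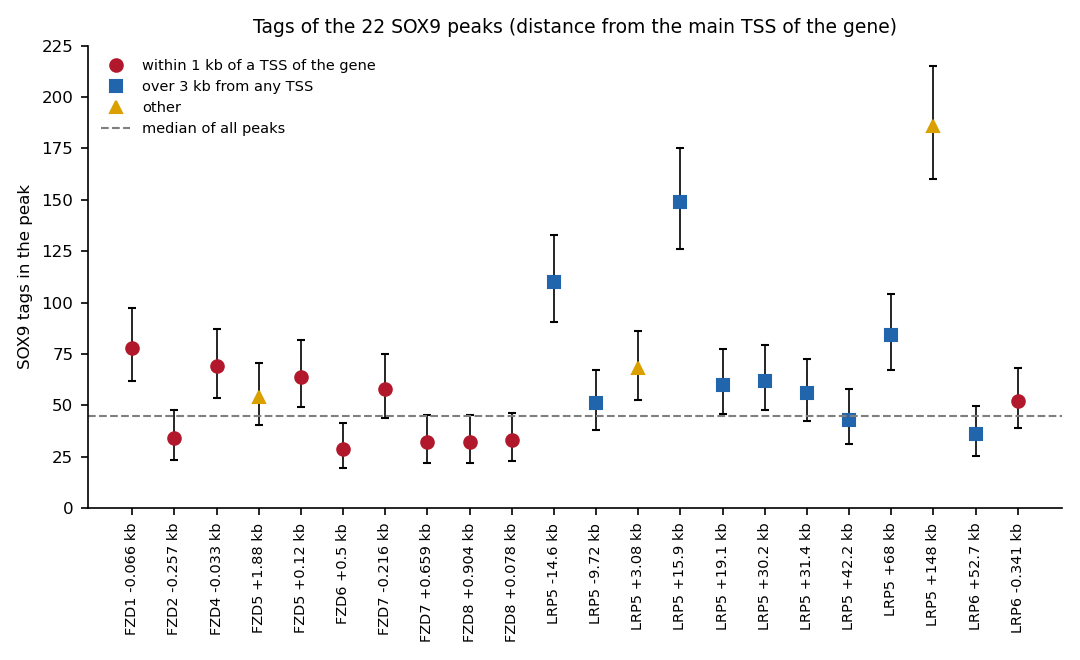
SOX9 tags in each of the 22 peaks, with exact Poisson 95% intervals, labelled by gene and by distance in kb from the main TSS. Circles are peaks within 1 kb of a TSS of the gene, squares are over 3 kb from any TSS, triangles are other peaks, and the dashed line is the median of all peaks (45 tags). The 2 peaks with the most tags are both in the LRP5 window, with 186 and 149 tags.

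As a group the receptor peaks were of middling strength. They had between 29 and 186 tags with a median of 57, and 15 of the 22 had more tags than the median peak of the list. The 10 promoter peaks had a median of 43 tags and 8.58-fold enrichment, against 54 tags and 10.05-fold for all 9631 peaks within 1 kb of a TSS. The 9 distant peaks had a median of 60 tags and 7.98-fold enrichment, against 36 tags and 10.84-fold for all 6706 peaks over 3 kb from a TSS. MACS gave an empirical false discovery rate of 0 for 18 of the 22 and at most 0.05% for the others. Summed over each peak interval, the SOX9 signal was 2.42 to 5.08 times that of the input, and the lower bounds of these ratios ranged from 1.47 to 3.52. Since the peaks were called on the same tags, these ratios describe the peaks and do not test them.

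A second measure did not use the peak calls: the SOX9 signal within 500 bp of the main TSS, divided by that of the input. It came from the same tags as the peaks, so it is not independent support for them. The ratio was 2 or more at 8 of the 10 receptor genes, against 56.0% of the 18892 protein-coding genes with input signal there. The median over the 10 genes was 3.29, against 2.22 over all protein-coding genes. Genes with a promoter summit had a median of 3.29 and those without one had 1.35.

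FZD4 had the highest ratio, 5.38 (2.61 to 11.5), from 52 SOX9 tags and 10 input tags. FZD8 followed with 4.70 (2.18 to 11.8), from 38 SOX9 tags and 8 input tags. FZD1 had 74 SOX9 tags, the most of the 10, and 17 input tags, a ratio of 4.33 (2.54 to 7.87). In these 3 genes, with FZD5, the lower bound was above 2.

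FZD2 had 35 SOX9 tags and 9 input tags (ratio 3.74, 1.83 to 9.20), and FZD5 had 62 SOX9 tags and 18 input tags (3.53, 2.01 to 6.19). LRP6 had 51 SOX9 tags and 17 input tags (3.05, 1.70 to 5.54), and FZD7 had 53 SOX9 tags and 19 input tags (2.75, 1.62 to 4.99). From FZD4 down to FZD7, each gene's interval overlapped that of its neighbours, so the order of these ratios is not fixed by the tags counted.

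The start of LRP5 carried SOX9 signal although no peak was called there. It had 33 SOX9 tags and 11 input tags, a ratio of 3.02 (1.48 to 6.58), and the SOX9 signal reached 15 extended tags per bin at −234 bp. Among the 9902 protein-coding genes without a promoter summit, 29.6% also had a ratio of 2 or more. FZD3, the other receptor gene without a promoter summit, had 13 SOX9 tags and 9 input tags, a ratio of 1.47 whose interval (0.571 to 3.83) included 1. FZD6 had 20 SOX9 tags and 11 input tags around the 5′ end of its record (1.91, 0.830 to 4.20), and 33 SOX9 tags and 11 input tags around the start of its MANE Select transcript (3.06, 1.48 to 6.58).

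**Figure D4:**
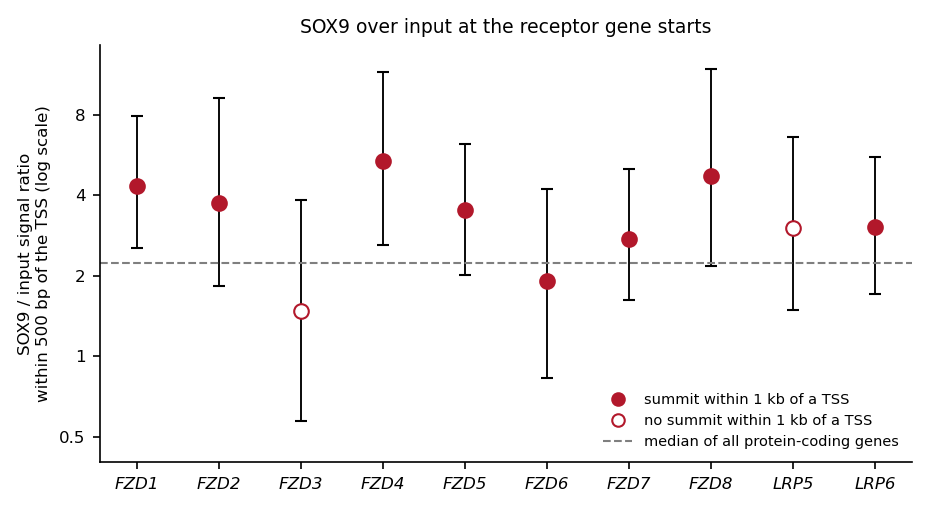
Ratio of SOX9 ChIP signal to input signal within 500 bp of the main TSS (log scale) for the 10 receptor genes, with exact 95% intervals for counting error. Filled circles are genes with a promoter summit, open circles are genes without one, and the dashed line is the median of all protein-coding genes (2.22). FZD3 and FZD6 lie below that line with 1.47 and 1.91.

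Tag numbers also follow the number of copies of a locus, which is uneven in this aneuploid line. The input signal in the 1 Mb around each TSS, relative to the median of autosomal windows of that size, ran from 0.487 at FZD3 to 1.53 at FZD4, and its median over the 10 genes was 1.09. FZD3, with no peak, thus had the lowest input level of the 10, and FZD4 and LRP5 (1.44) had the highest. The part of the local input level in the number of called peaks was not tested.

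CCAAT boxes were found at most of the occupied receptor promoters, as in most promoter intervals of the whole list. Of the 8 genes with a promoter peak, 7 had a CCAAT within the peak interval, and FZD6 did not. By peak, 8 of the 10 promoter intervals held one, against 61.6% of the intervals of all 9631 peaks within 1 kb of a TSS. Within 100 bp of the summit, 5 of the 10 promoter peaks had a CCAAT (FZD1, FZD2, FZD4, FZD7 upstream and LRP6), against 30% of all promoter peaks and 25.9% of windows of 201 bp centred on the main TSS of all protein-coding genes.

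Each of the 7 genes had a box upstream of its TSS, the nearest at −68 bp in FZD8, −73 bp in FZD4, −89 bp in FZD1, −142 bp in FZD2, −155 bp in FZD7, −197 bp in FZD5 and −267 bp in LRP6. Boxes downstream of the TSS were found in the intervals of FZD1 at +599 bp and of FZD8 at +1029 bp. At FZD2 the centre of the full NF-Y site was 7 bp from the SOX9 summit, and at FZD1 and FZD4 the CCAAT was 23 and 40 bp from it.

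The full NF-Y site was rarer. Within 100 bp of the summit it was found in 2 of the 22 peaks, FZD2 with 1 site and the peak at the PPP6R3 promoter with 3 sites, against 8.98% of all peaks, 14.1% of promoter peaks and 8.59% of TSS windows. Among all 17847 peaks, 53 (0.297%) had 3 or more full NF-Y sites in that window. In whole intervals the FZD5 and FZD8 sites were added, 317 and 146 bp upstream of their summits, so that 3 of the 10 promoter intervals had a site, against 20.8% of all promoter intervals.

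Within 100 bp of the summit, SOX sites were placed the other way, mostly in distant peaks of the co-receptor genes. Of the 9 peaks over 3 kb from any TSS, 5 had a SOX site within 100 bp of the summit (the LRP5 peaks at +15.9, +19.1, +30.2 and +42.2 kb and the LRP6 intronic peak), against 36.0% of all such peaks. Of the 10 promoter peaks only the FZD7 upstream peak had one, 49 bp from the summit and between its 2 CCAAT boxes, against 8.83% of all promoter peaks and 10.6% of TSS windows. In whole intervals, 3 of the 10 promoter peaks had a SOX site, against 37.8% of all promoter intervals. No CCAAT lay within 100 bp of the summit in any of the 9 distant peaks, against 22.6% of all such peaks.

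The inverted pair with a spacer of 4 bp, allowing up to 2 mismatches in 1 copy, was present within 100 bp of the summit in 1 of the 22 peaks, that of LRP5 at +15.9 kb, and in 4.81% of all peaks and 9.48% of distant peaks. There the centre of the pair was 23 bp from the summit and both copies were exact, which held for 42 of the 17847 peaks (0.235%). It was also the peak with the most tags among the 9 distant ones.

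The letters of a SOX site do not tell SOX9 from other HMG-box factors. A SOX site of the CAAAG form, read on the other strand, is CTTTG followed by a pair of bases that are each A or T, the core bound by the TCF and LEF proteins of the Wnt pathway. Each of the 6 receptor peaks with a SOX site had at least 1 site of this form in the same window, as did 70.9% of all peaks with a SOX site. An AP-1 site (TGACTCA or TGAGTCA) was found within 100 bp of the summit in 1 receptor peak, at −9.72 kb of LRP5, against 12% of all peaks, 21.8% of distant peaks and 2.63% of TSS windows.

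**Figure D5:**
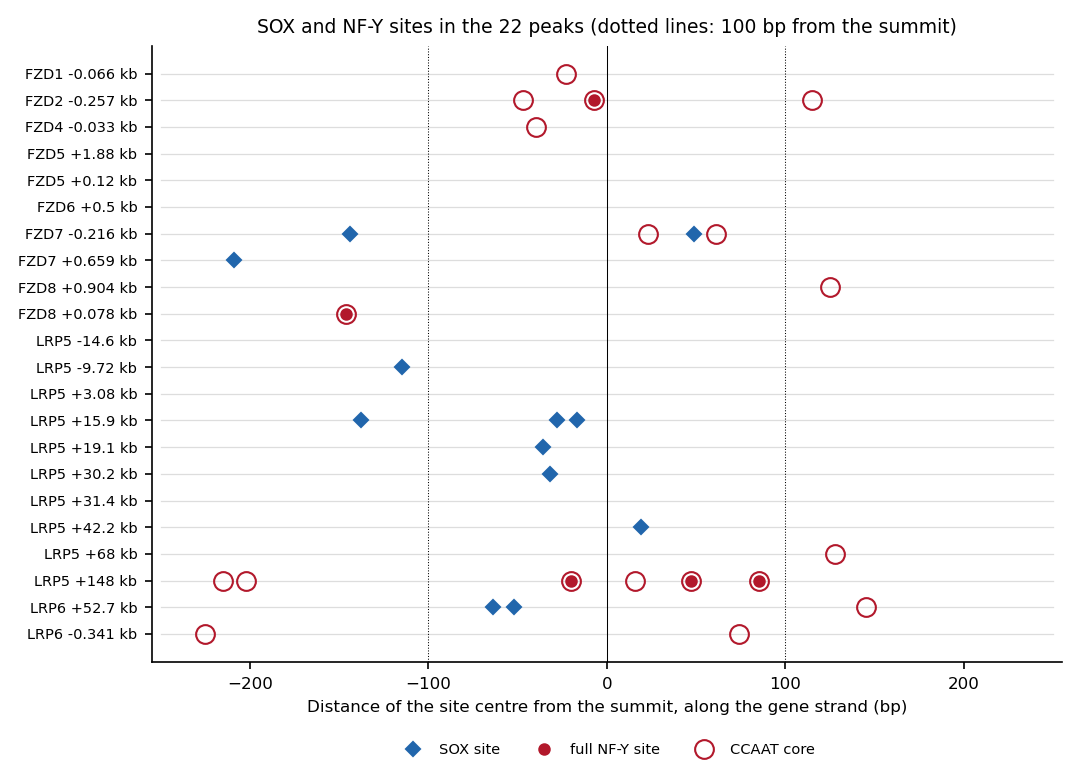
Position of SOX sites (blue diamonds), full NF-Y sites (filled red circles) and CCAAT cores (open red circles) relative to the summit in bp, along the strand of the gene, for the 22 peaks, within 250 bp of the summit. Dotted lines mark 100 bp. Within the dotted lines, CCAAT cores stand at the promoter peaks of FZD1, FZD2, FZD4, FZD7 and LRP6 and at the peak 148 kb from the LRP5 start, and SOX sites at the FZD7 upstream peak and at intronic peaks of LRP5 and LRP6.

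Other genes of the pathway were counted in the same way. Of 62 further genes in 6 lists, 20 (32.3%) had a promoter summit, against 44.9% of all protein-coding genes. Among 10 other Frizzled genes and co-receptors, 6 had one, led by TSPAN12, which assists FZD4 (94 tags), and MESD, the chaperone of LRP5 and LRP6 (75 tags), followed by ROR1 (51 tags) and PTK7 (32 tags), receptors with kinase-like domains. The remaining Frizzled genes, FZD9 and FZD10, had none, and their TSS windows held 7 SOX9 tags and 4 input tags at FZD9 and 1 SOX9 tag and 0 input tags at FZD10.

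Regulators of receptor turnover had a promoter summit at 5 of 9 genes. The share over all protein-coding genes, 44.9%, stands beside this count and those of the lists below. ZNRF3 and RNF43, ubiquitin ligases that remove Frizzleds from the membrane, had promoter peaks of 108 and 52 tags. The R-spondin receptors LGR4 and LGR6 had 43 tags each, and LGR5 had 40 tags. Of 12 antagonists only KREMEN1 (30 tags), and of 21 Wnt ligand and secretion genes 4, namely WNT11 (42 tags), WNT10A (39 tags), WLS (37 tags) and WNT7B (22 tags), had a promoter summit. Among the 3 Dishevelled adaptors DVL2 had one (35 tags). The shares in the short lists rest on few genes and were not tested against each other.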

How the data were processed

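ChIP and input DNA from HT-29 cells were sequenced as 50-nt single-end reads. According to the submitters' processing notes and the study's methods, the authors aligned reads to hg19 with BWA, kept unique alignments without duplicates and downsampled the input to the ChIP. The deposited signal counts, for each bin of 32 nt, the alignments that reach it after extension to 150 bp. Its sum was 5 per tag, so the tags of a window were taken as the signal divided by 5. The deposited peak list, called by the authors with MACS (p cut-off 1e-07, mfold 16, band width 150 bp), gives a tag count, a fold enrichment, a score (−log10 p times 10) and an FDR in percent for each peak.

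Genes came from GENCODE release 44 on GRCh37. The main TSS is the 5′ end of the gene record. Ratios of the deposited signal carry exact conditional binomial intervals and tag counts exact Poisson intervals. Motif and interval code was tested on simulated data. All 10 receptor genes are named, as are genes whose TSS is nearest to a receptor peak. Of each other list, up to 4 genes with the promoter peak of most tags are named, and LGR5 besides. The genes, lists and rules were chosen with earlier results of these data known, so list counts are descriptive. Of the 6 other lists, 1 is counted only in the total, and 1 promoter sequence is not reported here. Alternatives were other distances, TSS sets, peak positions, MACS limits, windows, ratio limits and motif forms. The start of the MANE Select transcript was added after seeing the data. The work was done with samtools 1.23.1, pandas 2.3.3, SciPy 1.17.1, NumPy 2.4.6, matplotlib 3.10.9 and Python 3.11.15.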

Additional observations from a re-analysis of the deposited data

How the results depend on the processing

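Of 57 alternatives computed, 52 kept the counts within 1.5 times or the ratios within the counting interval, and the ratio of FZD3 was the only one to cross 1. The 8 receptor genes with a promoter summit became 6 with a MACS score of 100 or more and 9 within 3 kb, and the 22 peaks became 16 with that score, 19 by nearest TSS, 26 within 50 kb and 14 in the gene bodies alone. The 2 peaks with a full NF-Y site became 4 over whole intervals and 6 with the CCAAT core alone. The 6 peaks with a SOX site became 2 within 25 bp of the summit and 13 over whole intervals, since a longer window holds more letters. At 4 genes a window of 250 bp or 1 kb moved the ratio by over 1.5 times from its value at 500 bp. Within 250 bp and 1 kb of the TSS, FZD4 had 9.88 and 2.89, FZD2 had 3.36 and 2.45, FZD6 had 1.03 and 2.01, and FZD3 had 0.85 and 1.84. No paired analysis was possible because there was 1 library of each kind. Depth also limited the ratios, since the input windows held 8 to 19 tags and the upper bound of every interval was over 3 times the lower.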
